A study of Mus musculus with 16 samples.

Results

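Cells that make secreted and membrane proteins fold them in the endoplasmic reticulum (ER). The 39 genes described here are the ER's folding machinery, its disposal route and the sensors that watch over it, measured among 15350 genes in interscapular brown adipose tissue of mice. They were taken by gene symbol as a list of ER chaperone and unfolded protein response genes. No cut on measured values was used, but the list was chosen with earlier results of these data known. All 39 had a value in all 16 libraries. By role they fell into 13 chaperones and co-chaperones, 10 disulfide and proline isomerases and oxidases, 9 genes of ER-associated degradation (ERAD), 5 sensors and their processing enzymes, and 2 subunits of the translocon. Counts of sensors below take in the sensor genes Ern1, Atf6 and Eif2ak3, the transcription factor gene Xbp1 and the protease gene Mbtps1. Total RNA came from 4 groups of C57BL/6J mice with 4 libraries each: Ucp1-knockout (KO) mice given isoproterenol, wild-type (WT) mice given isoproterenol, KO mice given saline, and WT mice given saline. Isoproterenol, an agonist of beta-adrenergic receptors that stands in for sympathetic activation of brown fat, was infused from implanted minipumps at 60 mg/kg/day for 3 days. UCP1 is the protein that lets brown fat mitochondria burn fuel as heat, and the labels name no promoter, Cre line or cell type that limits its knockout. The labels do not say whether each library is a separate mouse, so p-values measure the spread between libraries, which may be partly technical.

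ER chaperones such as BiP (Hspa5) hold new proteins until they fold, isomerases join their disulfide bonds, and ERAD pulls failed proteins out to the proteasome. When unfolded protein builds up, 3 membrane sensors respond. IRE1 (Ern1) cuts a short stretch from the Xbp1 mRNA, ATF6 is released by the site-1 protease (Mbtps1) and moves to the nucleus, and PERK (Eif2ak3) slows translation and raises ATF4. XBP1 and ATF6 then switch on chaperone and ERAD genes, in many of them through a promoter element named the ER stress response element (ERSE).

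Depth ran between 9004515 and 20986735 reads per library. Values are CPM, reads scaled to a library size of 1000000, and 1 read was worth well under 1 CPM in each library. The libraries of isoproterenol-treated KO mice stood apart from the other 12 and from each other: on the first principal component of all genes, which held 50.3% of the variance, they lay at 176, 100.4, 107 and 57.5, and the other 12 between -62.0 and 3.97. Leaving out Ucp1, the deleted gene, the other 5 brown adipocyte markers summed to 3037, 10313, 16385 and 32371 CPM in isoproterenol-treated KO replicates 1 to 4, against 17703 to 20264 CPM in isoproterenol-treated WT, 16848 to 17969 CPM in saline-treated KO and 15640 to 17237 CPM in saline-treated WT libraries. By this sum replicates 1 to 3 of the isoproterenol-treated KO group lay below the isoproterenol-treated WT range and replicate 4 lay above it. Most of the replicate 4 sum was Fabp4, at 26476 CPM. In that library Plin1 (1923 CPM) and Ppargc1a (341 CPM) also lay above their isoproterenol-treated WT ranges. Adipoq, at 631 CPM, lay below its range of 1024 to 1173 CPM, and Cidea, at 2999 CPM, lay inside its range of 2820 to 4010 CPM. The 6 macrophage markers summed to 7243, 1743, 3646 and 719 CPM in the same 4 isoproterenol-treated KO libraries, against 391 to 749.9 CPM in isoproterenol-treated WT, 230.1 to 445 CPM in saline-treated KO and 166 to 433 CPM in saline-treated WT libraries. In bulk tissue, fewer cells of a type and less RNA per cell cannot be told apart. Ucp1 itself was read at 19.0 to 2129 CPM in isoproterenol-treated KO libraries, against 8905 to 18458 CPM in isoproterenol-treated WT libraries, and at 409.8 to 1156 CPM in saline-treated KO libraries, against 2298 to 3449 CPM in saline-treated WT libraries. The saline difference of -2.02 log2 was not called (adjusted p = 0.742). The sources used here do not say which part of the gene is deleted, so those KO reads check the deletion only in part.

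In isoproterenol-treated KO tissue most chaperones and isomerases rose, and few genes of the disposal route or among the sensors did. Relative to saline-treated KO tissue, 21 of the 39 genes were higher and 2 were lower at an adjusted p below 0.05 (limma, Benjamini-Hochberg over all 15350 genes), where 23.8% of all genes were higher and 24.8% lower. By role, 10 of 13 chaperones, 7 of 10 isomerases and oxidases, 2 of 9 ERAD genes, 1 of 5 sensors and 1 of 2 translocon subunits were higher. The chaperone Sil1 and the ERAD gene Herpud1 were the 2 that fell. No test set the roles against each other. The median log2 fold change was 1.02 over the chaperones, 0.82 over the isomerases and oxidases, 0.16 over the ERAD genes and 0.05 over the sensors and their processing enzymes, beside -0.00 over all genes. Without replicate 1 of the isoproterenol-treated KO group, 20 of the 21 higher calls remained, Ero1lb lost its call, and Dnajb9 and Ero1l gained one. The medians were then 0.85, 0.57, 0.07 and 0.00.

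**Figure D1:**
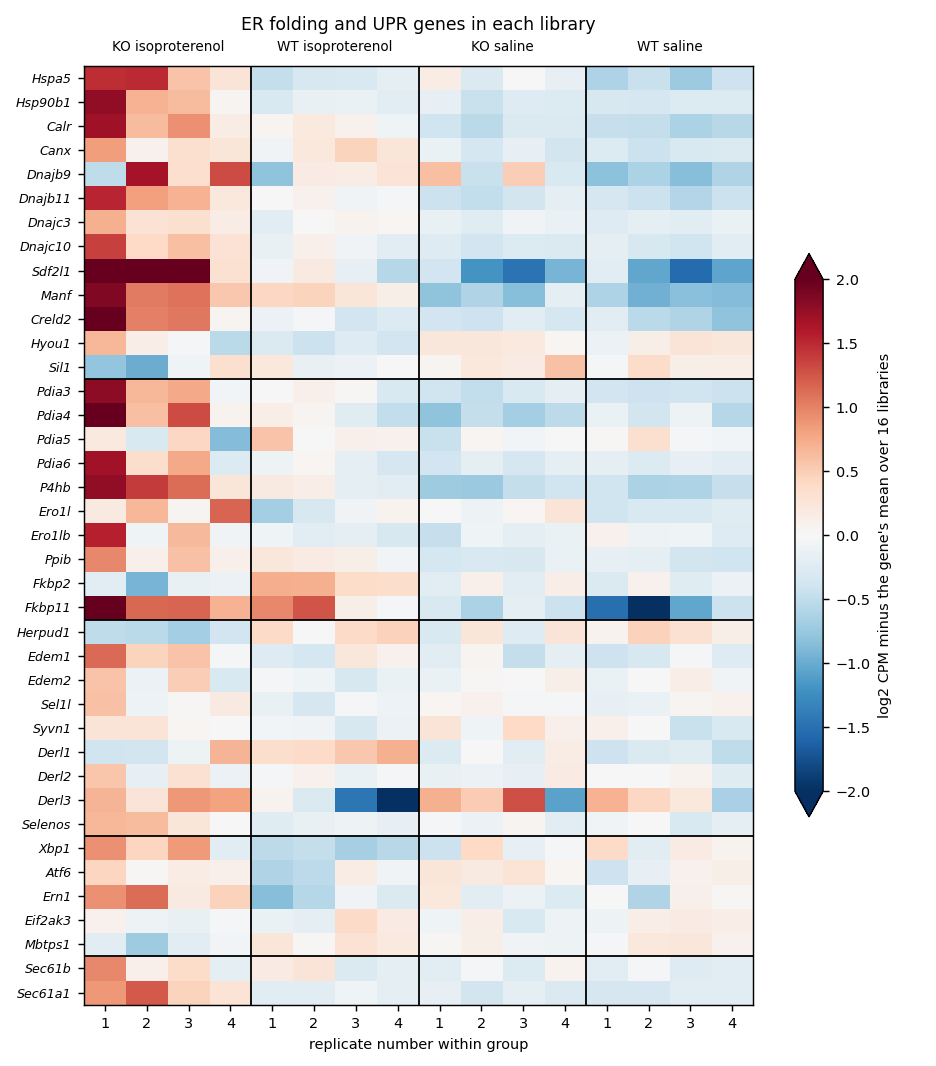
Level of each of the 39 genes (rows, ordered by role, with black lines between chaperones, isomerases and oxidases, ERAD genes, sensors and translocon) in each of the 16 libraries (columns), as log2 CPM minus the gene's mean over the 16 libraries, with red above and blue below that mean. Sdf2l1, Manf and P4hb are red in all 4 isoproterenol-treated KO libraries, most deeply in replicate 1 and least in replicate 4. Pdia4 is red in all of them but replicate 4, where it is near its mean, while most ERAD genes and sensors are pale.

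Sdf2l1, a small ER protein that works with BiP and its J-domain partners on misfolded proteins, made the largest change of all 39 genes. It was read at 90.8, 28.5, 40.2 and 8.85 CPM in isoproterenol-treated KO libraries, 6.82, 8.11, 6.38 and 4.80 CPM in isoproterenol-treated WT libraries, 5.49, 3.12, 2.58 and 3.73 CPM in saline-treated KO libraries, and 6.13, 3.48, 2.47 and 3.45 CPM in saline-treated WT libraries. The 4 isoproterenol-treated KO libraries lay above the other 12, yet spread about their own mean widely, at 42.1 ± 35 CPM (SD, n = 4), against 3.73 ± 1.26 CPM in saline-treated KO libraries (SD, n = 4). The log2 fold change over saline in KO was 3.11 (SE 0.51, adjusted p = 2.08e-04 by limma), a ratio of geometric means of 8.64. It was 2.59 without replicate 1, 3.71 without replicate 4, and significant either way.

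Manf, a secreted ER stress protein that binds BiP, responded to isoproterenol in both genotypes. Its values were 135, 76.9, 80.0 and 54.3 CPM in isoproterenol-treated KO libraries, 49.8, 51.1, 44.5 and 40.8 CPM in isoproterenol-treated WT libraries, 21.4, 24.8, 20.7 and 32.9 CPM in saline-treated KO libraries, and 24.4, 19.4, 21.1 and 20.6 CPM in saline-treated WT libraries. Neither isoproterenol group overlapped its saline group, and the 2 isoproterenol groups did not overlap each other. Manf was higher over saline by 1.74 log2 in KO (SE 0.22, adjusted p = 2.06e-05) and by 1.12 log2 in WT (SE 0.22, adjusted p = 0.00302). On chromosome 9 its exons overlap those of Dcaf1 on the opposite strand and of Rbm15b on its own, and the sources used here do not give how reads in such overlaps were assigned.

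Hspa5 (ENSMUSG00000026864, chromosome 2) encodes BiP, the Hsp70 chaperone of the ER, and is named here for that role after its values were seen. It was read at 1563, 1576, 828 and 669 CPM in isoproterenol-treated KO libraries, 405, 450.4, 454 and 495 CPM in isoproterenol-treated WT libraries, 624, 458, 560.4 and 498 CPM in saline-treated KO libraries, and 365, 411, 340.2 and 421 CPM in saline-treated WT libraries. Every isoproterenol-treated KO library exceeded every other library. The log2 fold change was 1.02 over saline in KO (SE 0.25, adjusted p = 0.00333) and 0.23 over saline in WT (SE 0.25, adjusted p = 0.571).

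Creld2, a cysteine-rich secretory protein induced by ER stress, had 97.2, 42.1, 43.7 and 21.8 CPM in isoproterenol-treated KO libraries, 19.3, 20.6, 16 and 17.3 CPM in isoproterenol-treated WT libraries, 16.2, 15.7, 18.2 and 16.5 CPM in saline-treated KO libraries, and 18, 14.5, 13.9 and 12 CPM in saline-treated WT libraries. Again no other library reached the lowest of the 4 isoproterenol-treated KO values. Dnajc10 (ERdj5), a J-domain protein that reduces disulfides of proteins bound for degradation, had 129.8, 66.6, 76.3 and 61.6 CPM in isoproterenol-treated KO libraries, 45.5, 54.2, 47.8 and 43.0 CPM in isoproterenol-treated WT libraries, 42.0, 38.5, 41.5 and 41.0 CPM in saline-treated KO libraries, and 44.3, 40.2, 38.1 and 43.5 CPM in saline-treated WT libraries. Over saline in KO the log2 fold changes were 1.42 for Creld2 (SE 0.30, adjusted p = 0.00144) and 0.97 for Dnajc10 (SE 0.18, adjusted p = 4.37e-04). The other chaperones called higher in KO were the BiP partners Dnajb11 at 1.19 log2 and Dnajc3 at 0.52, the ER Hsp90 Hsp90b1 at 1.07, and the lectin chaperones Calr at 1.22 and Canx at 0.63. Dnajb9, a J-domain protein that holds IRE1 inactive with BiP, was at 0.62 log2 (adjusted p = 0.211), with isoproterenol-treated KO values between 47.0 and 213 CPM.

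The nucleotide exchange factors of BiP, Hyou1 and Sil1, were not among the genes that rose. Hyou1 was at -0.11 log2 over saline in KO (adjusted p = 0.638), with means of 153 ± 52.3 CPM in isoproterenol-treated and 158 ± 9.09 CPM in saline-treated KO libraries (SD, n = 4 each). Sil1 fell, by 0.64 log2 (SE 0.23, adjusted p = 0.0293), with 22.7, 19.7, 36.9 and 48.9 CPM in isoproterenol-treated KO libraries against 40.5, 45.6, 44.2 and 58.8 CPM in saline-treated KO libraries. Those 2 ranges overlapped. The Sil1 call was lost without isoproterenol-treated KO replicate 1 (adjusted p = 0.0838) or 2 (0.103), without saline-treated KO replicate 2 (0.0512) or 4 (0.0908), and under scaling by library totals (0.0523).

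**Figure D2:**
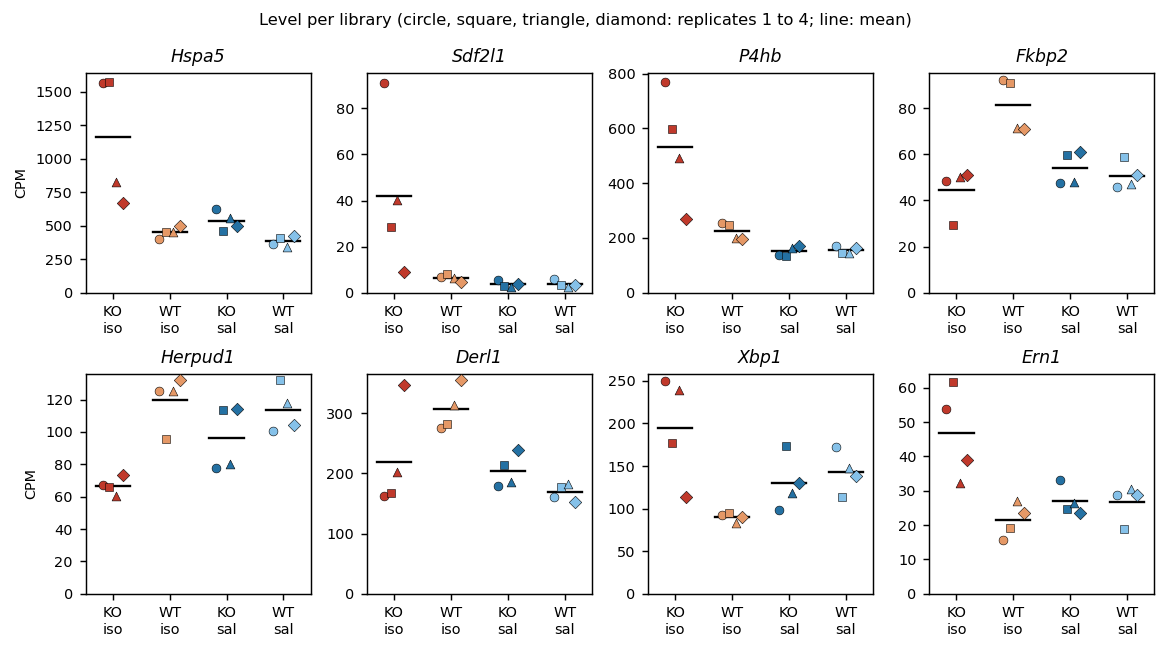
CPM of 8 genes in each of the 16 libraries on axes that start at 0, with 1 marker per library, its shape giving the replicate number, and a line at each group's mean. Hspa5, Sdf2l1 and P4hb are highest in the isoproterenol-treated KO libraries, Fkbp2 is highest in isoproterenol-treated WT libraries, Herpud1 is lowest in isoproterenol-treated KO libraries, and Xbp1 is lowest in isoproterenol-treated WT libraries.

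Among the enzymes that make and shuffle disulfides, P4hb and Pdia4 changed most in KO. P4hb, the classical protein disulfide isomerase, had 769, 597, 491 and 268 CPM in isoproterenol-treated KO libraries, 254, 249, 199 and 196 CPM in isoproterenol-treated WT libraries, 138, 135, 162 and 172 CPM in saline-treated KO libraries, and 172, 145, 147 and 163 CPM in saline-treated WT libraries. Pdia4 (ERp72), a relative with additional thioredoxin domains, had 299.6, 97.6, 159 and 67.4 CPM in isoproterenol-treated KO libraries, 70.1, 66.9, 54.5 and 45.6 CPM in isoproterenol-treated WT libraries, 36.7, 46.2, 40.1 and 44.6 CPM in saline-treated KO libraries, and 58.6, 49.8, 59.9 and 43.1 CPM in saline-treated WT libraries. In KO neither gene's isoproterenol-treated libraries overlapped its saline-treated ones, and for Pdia4 the isoproterenol-treated KO replicate 4 lay inside the WT isoproterenol range. The log2 fold changes over saline in KO were 1.72 for P4hb (SE 0.24, adjusted p = 5.74e-05) and 1.67 for Pdia4 (SE 0.32, adjusted p = 7.07e-04).

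Pdia3, which works with the lectin chaperones on glycoproteins, was higher in KO by 1.14 log2, Pdia6 by 0.90, the oxidase Ero1lb by 0.73 and the cyclophilin Ppib by 0.72. The Ero1lb call did not hold without isoproterenol-treated KO replicate 1, where it was 0.38 log2 (adjusted p = 0.0802), nor without isoproterenol-treated KO replicate 3 (0.0748) or saline-treated KO replicate 1 (0.0858), 3 (0.0586) or 4 (0.0534). Without isoproterenol-treated KO replicate 1, Pdia6 was at 0.55 log2 (adjusted p = 0.0214). The oxidase Ero1l, which recharges the isomerases, was at 0.47 log2 (adjusted p = 0.0776), and Pdia5 was at -0.03 (adjusted p = 0.939).

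The proline isomerases of the FKBP family, Fkbp11 and Fkbp2, were both called higher over saline in WT, and in KO Fkbp11 alone was called. Fkbp11, an ER membrane protein of secretory cells, was a rare transcript, with 6.87, 3.61, 3.63 and 2.63 CPM in isoproterenol-treated KO libraries, 3.15, 3.87, 1.76 and 1.58 CPM in isoproterenol-treated WT libraries, 1.31, 1.04, 1.41 and 1.21 CPM in saline-treated KO libraries, and 0.573, 0.226, 0.791 and 1.20 CPM in saline-treated WT libraries. Both isoproterenol groups lay above both saline groups. It was higher by 1.67 log2 in KO (SE 0.46, adjusted p = 0.00735) and by 2.03 log2 in WT (SE 0.46, adjusted p = 0.00795), on 323, 127, 59 and 30 reads per group in the same order of groups. Saline-treated WT replicate 2, at 0.226 CPM, lay below the 3 reads taken as the floor, worth 0.271 CPM there. Fkbp2 had 48.3, 29.3, 50.1 and 51.2 CPM in isoproterenol-treated KO libraries, 91.9, 91.0, 71.5 and 71.0 CPM in isoproterenol-treated WT libraries, 47.4, 59.7, 47.8 and 61.2 CPM in saline-treated KO libraries, and 45.6, 58.9, 47.0 and 51.2 CPM in saline-treated WT libraries. The isoproterenol-treated WT libraries alone stood above the rest, at 0.68 log2 over saline in WT (SE 0.17, adjusted p = 0.0157), against -0.30 log2 over saline in KO (adjusted p = 0.171).

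The ERAD genes moved in both directions and mostly by little. Edem1, a lectin that hands misfolded glycoproteins to the degradation machinery, had 269.5, 167, 182 and 121 CPM in isoproterenol-treated KO libraries, 103, 95.9, 144 and 130.2 CPM in isoproterenol-treated WT libraries, 107, 128, 88.7 and 107 CPM in saline-treated KO libraries, and 92.5, 98.6, 121 and 102 CPM in saline-treated WT libraries. It was higher over saline in KO by 0.73 log2 (SE 0.21, adjusted p = 0.00863), although isoproterenol-treated KO replicate 4 lay within the range of the saline-treated KO libraries. The other ERAD gene called higher in KO was Selenos, a selenoprotein of the retrotranslocation complex, at 0.47 log2 (adjusted p = 0.0107), which was not called when the 8 KO libraries were fitted alone (adjusted p = 0.0675).

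Herpud1, a membrane scaffold of the HRD1 ligase complex and a standard target of the stress response in human cells, went the other way. It had 67.2, 66.3, 60.1 and 73.3 CPM in isoproterenol-treated KO libraries, 125, 95.6, 125 and 132 CPM in isoproterenol-treated WT libraries, 78.0, 113, 80.5 and 114 CPM in saline-treated KO libraries, and 101, 132, 118 and 104 CPM in saline-treated WT libraries. The 4 isoproterenol-treated KO libraries were the lowest 4 of the 16 and close to each other, at 66.7 ± 5.38 CPM (SD, n = 4). Herpud1 fell by 0.51 log2 over saline in KO (SE 0.15, adjusted p = 0.0117). Scaled by library totals, which raised the median gene by 0.18 log2 in this comparison, the change was -0.33 log2 (adjusted p = 0.0636).

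The core of the HRD1 complex was not called: the ligase Syvn1 was at -0.02 log2 over saline in KO (adjusted p = 0.899), its partner Sel1l at 0.16 (adjusted p = 0.35), and the mannosidase relative Edem2 at 0.15 (adjusted p = 0.462). Exons of Syvn1 and Derl2 overlap genes on the opposite strand, and their values are uncertain to that extent. Of the derlins, the channel proteins of retrotranslocation, Derl1 had 163, 167, 202 and 346 CPM in isoproterenol-treated KO libraries, 276, 282, 314 and 355 CPM in isoproterenol-treated WT libraries, 179, 214, 185 and 239 CPM in saline-treated KO libraries, and 161, 177, 183 and 152 CPM in saline-treated WT libraries. In WT every isoproterenol-treated library exceeded every saline-treated one, and Derl1 was higher by 0.86 log2 (SE 0.20, adjusted p = 0.00992). In KO the change was 0.04 log2 (SE 0.20, adjusted p = 0.885), with 1 of the 4 isoproterenol-treated libraries, replicate 4, at the WT isoproterenol level.

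Of the 5 genes of sensors and their processing, 1 was called over saline in KO. Ern1, which encodes IRE1, had 53.8, 61.7, 32.3 and 39.1 CPM in isoproterenol-treated KO libraries, 15.8, 19.2, 27.1 and 23.4 CPM in isoproterenol-treated WT libraries, 33.2, 24.6, 26.3 and 23.5 CPM in saline-treated KO libraries, and 28.8, 18.7, 30.7 and 28.8 CPM in saline-treated WT libraries. It was that gene, at 0.76 log2 (SE 0.22, adjusted p = 0.0109). That call was lost when limma weighted each library by its consistency, at 0.37 log2 (adjusted p = 0.15).

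Xbp1, whose mRNA IRE1 cuts, had 249.6, 178, 239 and 114 CPM in isoproterenol-treated KO libraries, 92.0, 94.5, 82.8 and 90.1 CPM in isoproterenol-treated WT libraries, 98.2, 174, 118 and 130.3 CPM in saline-treated KO libraries, and 173, 114, 148 and 139 CPM in saline-treated WT libraries. Isoproterenol-treated WT libraries were the lowest of the 4 groups, and isoproterenol-treated KO libraries overlapped saline-treated KO libraries only through replicate 4. Neither change over saline passed the threshold: Xbp1 was at 0.55 log2 in KO (SE 0.23, adjusted p = 0.0558) and at -0.66 log2 in WT (SE 0.23, adjusted p = 0.0583). The KO value was called at 0.79 log2 without isoproterenol-treated KO replicate 4 (adjusted p = 0.00244) and at 0.70 without saline-treated KO replicate 2 (adjusted p = 0.0246). The WT value kept its size and was called when only the WT libraries entered the fit (adjusted p = 0.00234), or without isoproterenol-treated KO replicate 1 (0.0318) or 4 (0.0147) or saline-treated KO replicate 2 (0.0483).

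The cut that makes the active XBP1 protein removes 26 bases and changes the reading frame, and the gene-level values here do not separate the 2 forms of the mRNA. The stretch is shown because it is the point at which sensing becomes transcription. It is given on the sense strand from transcript Xbp1-201 of the GENCODE M21 annotation (chromosome 11), with the removed bases in capitals. The longest open reading frame through it has 267 codons with the capitals and 371 codons without them.
Xbp1 mRNA: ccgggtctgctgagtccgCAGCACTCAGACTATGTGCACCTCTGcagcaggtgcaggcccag

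Atf6 had 117, 87.8, 96.1 and 92.5 CPM in isoproterenol-treated KO libraries, 57.0, 60.4, 96.0 and 82.7 CPM in isoproterenol-treated WT libraries, 102, 98.0, 105 and 88.9 CPM in saline-treated KO libraries, and 65.1, 77.7, 92.1 and 93.5 CPM in saline-treated WT libraries. Its change over saline in KO was -0.01 log2 (adjusted p = 0.979). Eif2ak3, which encodes PERK, had 28.4, 24.8, 23.9 and 26.3 CPM in isoproterenol-treated KO libraries, 24.2, 23.4, 34.9 and 29.8 CPM in isoproterenol-treated WT libraries, 25.1, 29.1, 21.5 and 24.8 CPM in saline-treated KO libraries, and 24.9, 29.2, 29.7 and 29.2 CPM in saline-treated WT libraries. These 4 groups overlapped throughout, and no comparison of Eif2ak3 passed the threshold (log2 fold change over saline in KO 0.05, SE 0.14, adjusted p = 0.805). Mbtps1 had 101, 72.6, 101 and 115 CPM in isoproterenol-treated KO libraries, 141, 119.9, 145 and 136 CPM in isoproterenol-treated WT libraries, 120.4, 129, 114 and 111 CPM in saline-treated KO libraries, and 115, 137, 138 and 126 CPM in saline-treated WT libraries. It was at -0.30 log2 over saline in KO (SE 0.13, adjusted p = 0.0713).

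Of the translocon, the channel through which new proteins enter the ER, Sec61a1 forms the pore. It had 178, 228, 133 and 118 CPM in isoproterenol-treated KO libraries, 84.4, 83.3, 91.4 and 85.4 CPM in isoproterenol-treated WT libraries, 86.6, 75.4, 85.7 and 79.5 CPM in saline-treated KO libraries, and 76.9, 77.3, 83.6 and 83.4 CPM in saline-treated WT libraries. The other 12 libraries all lay below the isoproterenol-treated KO libraries, and the change over saline in KO was 0.96 log2 (SE 0.16, adjusted p = 2.12e-04). The small subunit gene Sec61b was at 0.42 log2 (adjusted p = 0.0866).

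**Figure D3:**
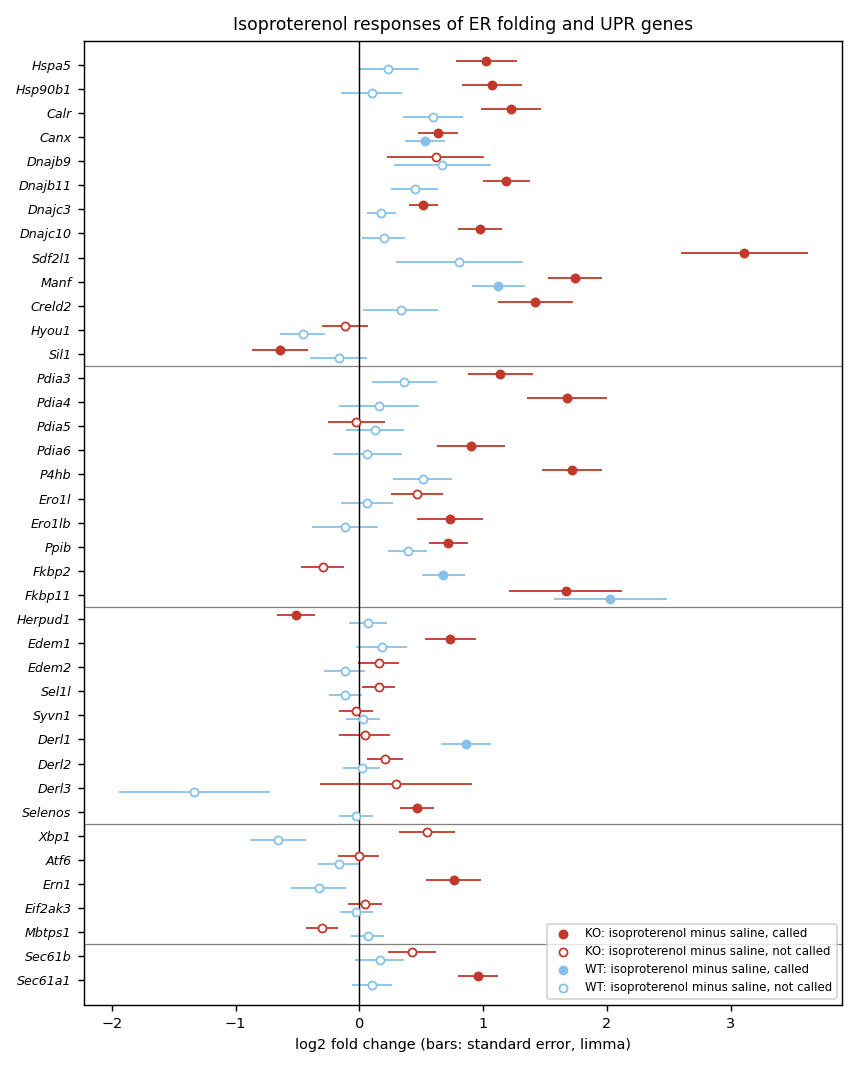
Log2 fold change of each of the 39 genes after isoproterenol over saline, in KO (red) and WT (blue) tissue, with bars of 1 SE and filled points where the adjusted p was below 0.05. Chaperones and isomerases lie mostly to the right of 0 in KO, ERAD genes and sensors gather near 0, and filled WT points belong to Canx, Manf, Fkbp2, Fkbp11 and Derl1.

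Promoters are given because many chaperone genes rose together. RefSeq windows from 250 bases before to 50 bases after a gene's start (GRCm38.p6) were at hand for 33 of the 39 genes. The ERSE was searched as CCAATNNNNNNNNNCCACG on both strands. It was found in 10 of the 33, or 30.3%, against 37 of all 27025 genes with a window, or 0.137%. The element is already known from chaperone and ERAD genes, and these shares use sequence alone. They are therefore no result of the measured values. By role it was in 6 of 10 chaperones, 2 of 10 isomerases and oxidases, 2 of 8 ERAD genes, 0 of 4 sensors and processing enzymes, and 0 of 1 translocon subunit. A match is a description of letters, and a promoter without these letters may still bind the same factors.

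The 19 bases of each match are listed because the 10 genes share them while differing in response. Capitals mark the CCAAT and CCACG parts, printed in the direction in which CCAAT comes first, with the GRCm38.p6 position and the strand that is printed.
Hspa5, chr2:34772025-34772043, plus strand: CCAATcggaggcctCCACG
Hsp90b1, chr10:86705533-86705551, plus strand: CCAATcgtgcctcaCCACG
Hsp90b1, chr10:86705638-86705656, minus strand: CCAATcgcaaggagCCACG
Calr, chr8:84847075-84847093, plus strand: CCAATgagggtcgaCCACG
Canx, chr11:50325800-50325818, minus strand: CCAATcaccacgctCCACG
Dnajc3, chr14:118937827-118937845, plus strand: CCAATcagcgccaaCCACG
Creld2, chr15:88819520-88819538, minus strand: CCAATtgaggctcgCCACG
Pdia6, chr12:17266491-17266509, plus strand: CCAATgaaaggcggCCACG
Ero1lb, chr13:12565682-12565700, minus strand: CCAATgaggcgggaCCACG
Derl3, chr10:75893242-75893260, minus strand: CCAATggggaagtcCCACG
Syvn1, chr19:6046532-6046550, plus strand: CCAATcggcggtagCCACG

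The Hspa5 window is given whole, as the promoter of the main Hsp70 of the ER, with its exact match in capitals. The upstream end of the match lies 65 bases before the annotated start, and CCAAT alone occurs further upstream.
Hspa5 promoter, chr2:34771840-34772139, plus strand: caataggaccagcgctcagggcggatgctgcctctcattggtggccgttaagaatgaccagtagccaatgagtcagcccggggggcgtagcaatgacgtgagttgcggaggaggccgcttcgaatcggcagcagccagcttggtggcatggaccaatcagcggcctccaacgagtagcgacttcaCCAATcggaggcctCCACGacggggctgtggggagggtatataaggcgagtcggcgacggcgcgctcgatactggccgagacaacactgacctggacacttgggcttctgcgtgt

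Of the 10 genes with the element, 8 were higher over saline in KO and 0 lower, with a median of 0.82 log2 and a range of -0.02 to 1.42. Of the 23 with a window and no match, 11 were higher and 1 was lower, with a median of 0.55 log2 and a range of -0.51 to 3.11. Of all genes, 23.8% were higher and 24.8% lower in this comparison. Chaperones made up 6 of the 10 genes with the element, so element and role cannot be told apart here. The split was not tested. Syvn1 and Derl3 carried the element and were not called in KO, while Sdf2l1, P4hb and Pdia4, with larger changes than any gene that carried it, had no exact match. The shorter ERSE-II, searched as ATTGGNCCACG on both strands, was in 2 of the 33 genes and in 12 of all 27025. The pair is shown because the 2 genes changed in opposite directions, Dnajb11 at 1.19 and Herpud1 at -0.51 log2 over saline in KO.
Dnajb11, chr16:22857852-22857862, plus strand: ATTGGcCCACG
Herpud1, chr8:94386377-94386387, plus strand: ATTGGgCCACG

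Of the other motifs searched on both strands, TGACGTGG, bound by XBP1, was in 0 of the 33 windows and in 0.714% of all genes. TGATGNAA, bound by ATF4 with a partner, was in 1 of the 33, Herpud1, and in 4.51% of all genes. CCACG, which is part of both ERSE forms, was in 28 of the 33 and in 35.5% of all genes. The windows held no entry for Manf, Hyou1, Sil1, Derl1, Atf6 and Sec61a1.

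The rise in KO was not even across its 4 libraries. Replicate 1 held the group's highest value for 27 of the 39 genes, where it held it for 37.4% of all genes, and replicate 4 held the lowest for 24 of the 39, where it held it for 34.7% of all genes. Summed over the 13 chaperones, isoproterenol-treated KO libraries had 2398 to 5392 CPM, isoproterenol-treated WT libraries 1812 to 2055 CPM, saline-treated KO libraries 1638 to 1966 CPM, and saline-treated WT libraries 1509 to 1626 CPM. The same replicate 1 had the lowest sum of the 5 brown adipocyte markers and the highest sum of macrophage markers, and replicate 4 had the highest and the lowest. Within isoproterenol-treated KO libraries the median SD of a member gene was 0.492 log2, against 0.160 log2 in isoproterenol-treated WT, 0.156 in saline-treated KO and 0.132 in saline-treated WT libraries. Over all genes the median SD was 0.442, 0.236, 0.246 and 0.201 log2 in the same order. The wider spread in isoproterenol-treated KO libraries was therefore not particular to the 39 genes.

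Cell markers also changed in KO tissue, in both directions. In isoproterenol-treated over saline-treated KO tissue, 6 of 6 macrophage markers and 4 of 4 neutrophil markers were higher, and 3 of the 5 brown adipocyte markers other than Ucp1 were lower. Of all genes, 23.8% were higher and 24.8% lower in this comparison. The neutrophil markers summed to 52.0 to 237 CPM in isoproterenol-treated KO, 8.48 to 15.7 CPM in isoproterenol-treated WT, 1.96 to 3.25 CPM in saline-treated KO and 2.24 to 6.77 CPM in saline-treated WT libraries. The 5 B and plasma cell markers, from cells rich in these chaperones, summed to 3.86 to 52.0 CPM in isoproterenol-treated KO against 21.4 to 63.2 CPM in saline-treated KO libraries, with 0 higher and 3 lower. The 4 fibroblast markers summed to 1004 to 5042 CPM in isoproterenol-treated KO against 1165 to 1574 CPM in saline-treated KO libraries, with 2 higher and 0 lower, and 2 of 3 endothelial markers were higher. The 4 skeletal muscle markers varied in every group, with 3.33 to 442 CPM in isoproterenol-treated KO and 2.18 to 482 CPM in saline-treated KO libraries, and none was called. The part of these cell types in the chaperone rise was not tested.

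**Figure D4:**
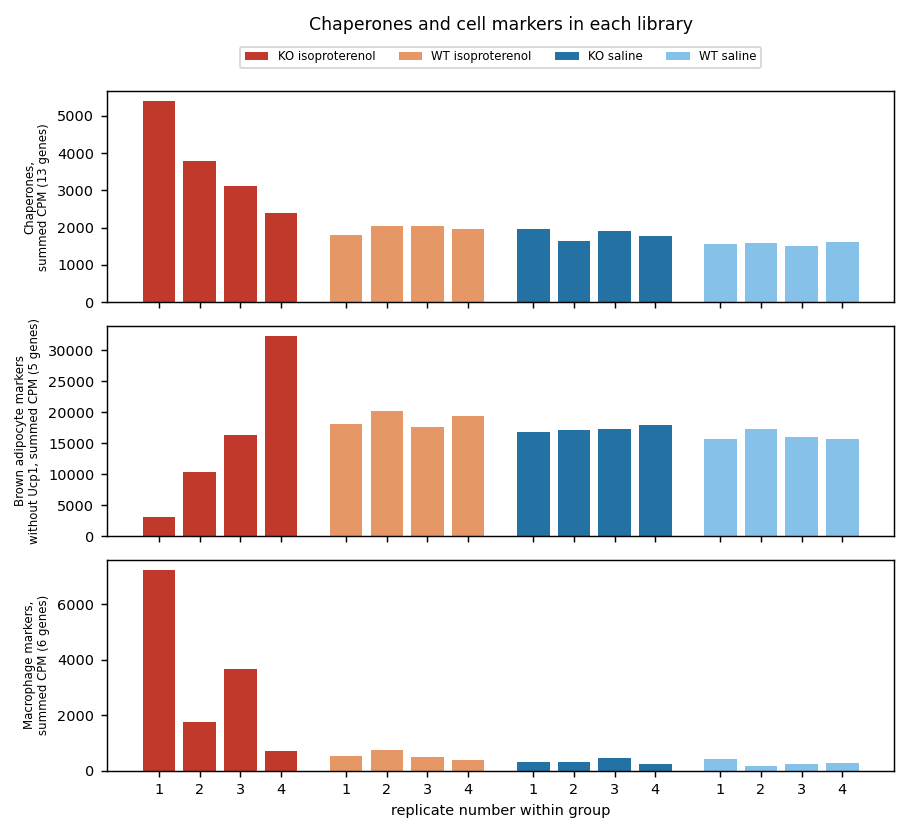
Summed CPM of the 13 chaperones, of the 5 brown adipocyte markers other than Ucp1 and of the 6 macrophage markers in each library, as bars from 0, with groups from isoproterenol-treated KO at the left to saline-treated WT at the right. Isoproterenol-treated KO replicate 1 has the most chaperone and macrophage reads (5392 and 7243 CPM) and the fewest brown adipocyte marker reads (3037 CPM), and replicate 4 has the most brown adipocyte marker reads of all libraries (32371 CPM).

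In WT tissue the fit of all 16 libraries called few of the 39 genes, and few of all genes. In it, 5 were higher and 0 lower over saline, where 7.60% of all genes were higher and 8.98% lower. An unadjusted p below 0.05 was found for 11 of the 39 and for 30.4% of all genes. The 5 were the chaperones Manf and Canx, the isomerases Fkbp2 and Fkbp11, and Derl1. In the same comparison 2 of 6 macrophage and 3 of 4 neutrophil markers were higher and 0 of 6 brown adipocyte markers (Ucp1 included) were called, and their part was not tested. Canx, a membrane lectin that holds new glycoproteins, had 286, 351, 411 and 357 CPM in isoproterenol-treated WT libraries against 250.1, 224, 244 and 247 CPM in saline-treated WT libraries, and the 2 groups did not overlap. In KO it had 541, 319.7, 378 and 358 CPM in isoproterenol-treated libraries against 274, 235, 268 and 234 CPM in saline-treated libraries. Its change over saline was 0.53 log2 in WT (SE 0.16, adjusted p = 0.0376) and 0.63 log2 in KO (SE 0.16, adjusted p = 0.00513).

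Samples with the same replicate number deviated together in the 2 WT groups, although isoproterenol-treated replicate 3 matched saline-treated replicate 4 best. With that number as a block the Canx change in WT kept its size but missed the threshold when all 16 libraries were fitted (adjusted p = 0.0526), and passed it when the 8 WT libraries were fitted alone (adjusted p = 0.00692). Leaving out WT libraries ended the Canx call for isoproterenol-treated replicates 2 (adjusted p = 0.0787), 3 (0.111) and 4 (0.0847) and for saline-treated replicates 1 (0.0655), 2 (0.102), 3 (0.0775) and 4 (0.0748), and it also missed under library totals (0.12). In the fit of the 8 WT libraries with no block, which does not share its spread with the more variable KO libraries, 12 of the 39 genes were higher and 2 were lower in isoproterenol-treated WT tissue, and so were 16.3% and 15.8% of all genes. The 7 that it added were Calr (0.59 log2), Dnajb9 (0.67), Dnajb11 (0.45), Sdf2l1 (0.81), Pdia3 (0.36), P4hb (0.51) and Ppib (0.39), and the 2 lower were Hyou1 (-0.46) and Xbp1 (-0.66).

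Under saline no difference between the genotypes was detected in these genes. Saline-treated KO over saline-treated WT tissue gave 0 higher and 0 lower of the 39 by limma, where 0.0717% of all genes were higher and 0.0261% lower, and 2 of the 39 had an unadjusted p below 0.05, as had 6.91% of all genes. The median over the 39 was 0.05 log2. The largest values belonged to Fkbp11 at 1.06 log2 (SE 0.46, adjusted p = 0.655) and Dnajb9 at 0.81 log2 (SE 0.39, adjusted p = 0.742). Dnajb9 had 102, 49.2, 94.2 and 54.0 CPM in saline-treated KO libraries against 38.0, 43.5, 37.1 and 44.2 CPM in saline-treated WT libraries. No saline-treated KO value fell inside the WT range, and with library weights, where 2 of the 39 and 2.07% of all genes were higher, Dnajb9 was called at 0.97 log2 (adjusted p = 0.0392) and Syvn1 at 0.44 (adjusted p = 0.0434).

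Under isoproterenol the genotypes differed widely. In isoproterenol-treated KO over isoproterenol-treated WT tissue 22 of the 39 were higher and 4 were lower, where 21.6% of all genes were higher and 23.1% lower. The 22 were 9 of 13 chaperones, 6 of 10 isomerases and oxidases, 3 of 9 ERAD genes, 3 of 5 sensors and 1 of 2 translocon subunits, and the 4 lower were Fkbp2, Herpud1, Derl1 and Mbtps1. These values share their isoproterenol-treated KO libraries with the comparison over saline in KO and are no independent count. Without isoproterenol-treated KO replicate 1, 18 of the 22 kept their call, and Pdia6 (0.43 log2), Ero1lb (0.37), Edem1 (0.40) and Atf6 (0.35) lost it. Fitted on the 8 isoproterenol-treated libraries alone, 11 of the 22 were higher and 2 of the 4 lower, with the same fold changes, and the shares of all genes were 14.2% higher and 16% lower. Pdia6 and Ero1lb also lost their calls without isoproterenol-treated KO replicate 3 or isoproterenol-treated WT replicate 1, 3 or 4, Ero1lb without isoproterenol-treated WT replicate 2, saline-treated KO replicate 3 or saline-treated WT replicate 2 or 3, and Pdia3 without isoproterenol-treated WT replicate 4, with adjusted p of 0.0502 to 0.0889.

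Sdf2l1 was higher in KO by 2.27 log2 (SE 0.51, adjusted p = 0.00242), Creld2 by 1.28 (SE 0.30, adjusted p = 0.00323), Hspa5 by 1.27 (SE 0.25, adjusted p = 9.21e-04), Pdia4 by 1.19 (SE 0.32, adjusted p = 0.00807, or 0.0602 with the 8 libraries alone) and P4hb by 1.15 (SE 0.24, adjusted p = 0.00143). Calr was at 0.78 log2 and Pdia3 at 0.83, and both were at 0.50 without isoproterenol-treated KO replicate 1 (adjusted p = 0.0231 and 0.0288). Sec61a1 was higher by 0.88 log2 (SE 0.16, adjusted p = 5.10e-04).

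Among the sensors and their processing enzymes, 3 of 5 were higher and 1 was lower. Ern1 was higher in isoproterenol-treated KO than in isoproterenol-treated WT tissue by 1.11 log2 (SE 0.22, adjusted p = 0.00113) and Xbp1 by 1.06 log2 (SE 0.23, adjusted p = 0.00171), with no overlap for either gene. Atf6 was higher by 0.43 log2 (SE 0.17, adjusted p = 0.0457). The Atf6 groups overlapped, and among other settings the call was lost under median-of-ratios scaling (adjusted p = 0.0508) and without isoproterenol-treated KO replicate 1 (0.116) or 3 (0.0717), isoproterenol-treated WT replicate 1 (0.146) or 2 (0.13), or any saline-treated KO library (0.0525 to 0.0551). Leaving out saline-treated WT replicate 2 (0.0567), 3 (0.0516) or 4 (0.05) ended it too. Mbtps1 fell by 0.49 log2 (SE 0.13, adjusted p = 0.00727), but under library totals, which raised the median gene by 0.27 log2 here, it was at -0.24 (adjusted p = 0.0746).

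Among ERAD genes Derl3, a rare derlin of secretory cells, had 1.36, 1.02, 1.54 and 1.48 CPM in isoproterenol-treated KO libraries, 0.894, 0.693, 0.31 and 0.105 CPM in isoproterenol-treated WT libraries, 1.38, 1.21, 2.07 and 0.402 CPM in saline-treated KO libraries, and 1.37, 1.13, 0.977 and 0.54 CPM in saline-treated WT libraries. Every isoproterenol-treated KO library exceeded every isoproterenol-treated WT library, the WT ones on 22 reads in all, and the saline-treated groups overlapped both. Isoproterenol-treated WT replicate 4, at 0.105 CPM, lay below the 3 reads taken as the floor, worth 0.210 CPM there. The difference between genotypes was 1.82 log2 (SE 0.61, adjusted p = 0.0246), and it was 1.21 without isoproterenol-treated WT replicate 4 (adjusted p = 0.0861). It also missed the threshold without isoproterenol-treated WT replicate 3 (0.0588) or isoproterenol-treated KO replicate 3 (0.0538). Herpud1 fell by 0.83 log2 in KO relative to WT under isoproterenol (SE 0.15, adjusted p = 5.72e-04), and Fkbp2 by 0.89 log2 (SE 0.17, adjusted p = 9.28e-04). Derl1 was at -0.55 log2 (SE 0.20, adjusted p = 0.0385), and lost its call without isoproterenol-treated KO replicate 1 (0.102), 2 (0.112) or 3 (0.0736), without isoproterenol-treated WT replicate 2 (0.05), 3 (0.0768) or 4 (0.104), and under library totals (0.138). Edem1 was at 0.60 log2 (SE 0.21, adjusted p = 0.0266), and beside KO replicate 1 (0.079) it needed isoproterenol-treated KO replicate 3 (0.0528) and isoproterenol-treated WT replicates 1 (0.0706) and 2 (0.079).

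The test of whether the 2 genotypes respond differently to isoproterenol is the difference of their responses, KO minus WT. It was called higher for 7 of the 39 genes and lower for 2, where 10.9% of all genes were higher and 13.8% lower. The response in KO exceeded that in WT for Sdf2l1 by 2.30 log2 (SE 0.73, adjusted p = 0.0317), Pdia4 by 1.52 (SE 0.46, adjusted p = 0.0267), P4hb by 1.21 (SE 0.34, adjusted p = 0.0201), Xbp1 by 1.21 (SE 0.32, adjusted p = 0.0152), Ern1 by 1.09 (SE 0.32, adjusted p = 0.0223), Sec61a1 by 0.86 (SE 0.22, adjusted p = 0.0145) and Dnajc10 by 0.78 (SE 0.25, adjusted p = 0.0346). It was below that in WT for Fkbp2, at -0.98 log2 (SE 0.25, adjusted p = 0.012), and for Derl1, at -0.82 log2 (SE 0.29, adjusted p = 0.0479). For Hspa5 the difference was 0.79 log2 (SE 0.35, adjusted p = 0.109), for Manf 0.62 (SE 0.31, adjusted p = 0.151) and for Herpud1 -0.58 (SE 0.22, adjusted p = 0.0597), none of them called.

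By role the calls of a larger response in KO were 2 of 13 chaperones, 2 of 10 isomerases and oxidases, 0 of 9 ERAD genes, 2 of 5 sensors and 1 of 2 translocon subunits, with medians of 0.63, 0.59, 0.27, 0.16 and 0.56 log2, beside 0.04 over all genes. Several of these calls lay near the threshold and hung on single libraries. There were 18 higher calls without isoproterenol-treated KO replicate 4, and 4 without isoproterenol-treated WT replicate 3 or 4 or without saline-treated WT replicate 1. The share of all genes called higher moved likewise, to 17.4% without isoproterenol-treated KO replicate 4, and to 7.72%, 7.13% and 7.11% without the other 3. The 3 lost there were Dnajc10 (0.74 log2 and adjusted p = 0.0678 without saline-treated WT replicate 1), Sdf2l1 (2.06 and 0.0693) and Pdia4 (1.46 and 0.0537). Dnajc10 also lost its call without isoproterenol-treated WT replicate 1, any saline-treated KO replicate, or saline-treated WT replicate 2 or 4 (adjusted p of 0.0502 to 0.0618). Sdf2l1 lost it without isoproterenol-treated KO replicate 3 or saline-treated KO replicate 2, 3 or 4 (0.0513 to 0.0591), and Pdia4 without saline-treated WT replicate 3 (0.052). Derl1 lost its call without each library in turn (-0.88 to -0.70 log2), except isoproterenol-treated KO replicate 4, without which it was -1.06. P4hb, Xbp1, Sec61a1 and Fkbp2 kept theirs whichever library was left out, as did Ern1, whose call was lost with library weights (0.64 log2, adjusted p = 0.079).

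Levels per length rank these genes by mRNA, with the longest coding transcript taken as the one expressed. In saline-treated WT tissue, per kilobase of the longest coding transcript, Calr stood at 147 CPM per kb and Hspa5 at 105, followed by Xbp1 at 67.3, Pdia3 at 66.6 and Pdia6 at 65.3. The last 3 differ by less than the spread of Xbp1 between libraries, whose SD was 24.2 CPM on a mean of 143 CPM (n = 4). Sdf2l1, at 3.50 CPM per kb, was 36th of the 39, and Fkbp11 at 0.951 and Derl3 at 0.759 were the lowest.

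Lists of other components of the pathway were counted beside these genes and were not tested against the background, which was 23.8% of all genes higher and 24.8% lower in KO. In isoproterenol-treated over saline-treated KO tissue, 12 of 23 genes of translocation, signal peptidase and signal recognition were higher and 0 lower, led by Tram2 at 1.26 log2, the signal peptidase subunit Spcs3 at 1.18 and the translocon partner Ssr1 at 0.96. Of 18 genes of N-glycan transfer and glycan quality control, 7 were higher and 0 lower, led by the oligosaccharyltransferase subunits Ostc at 1.47 and Rpn1 at 1.07 and the folding sensor Uggt1 at 0.80. Of 19 genes of COPII transport and retrieval, 6 were higher and 1 was lower. They were led by Kdelr3 at 1.71, a receptor that returns escaped chaperones to the ER, the coat subunit Sec24d at 1.06 and Kdelr2 at 0.69. Medians over these lists were 0.30, 0.17 and 0.10 log2.

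The PERK branch and the wider integrated stress response had 4 of 16 genes higher and 2 lower in KO, a share of higher calls near that of all genes (23.8%). Gdf15, a secreted stress hormone, had 52.7, 222, 40.3 and 104 CPM in isoproterenol-treated KO libraries, 1.55, 2.57, 1.28 and 1.23 CPM in isoproterenol-treated WT libraries, 1.81, 1.71, 1.49 and 0.862 CPM in saline-treated KO libraries, and 2.25, 0.767, 0.419 and 0.955 CPM in saline-treated WT libraries. The isoproterenol-treated KO libraries alone were high, at 5.89 log2 over saline in KO (SE 0.53, adjusted p = 1.37e-06), and the KO response exceeded the WT response by 5.10 log2 (SE 0.75, adjusted p = 9.05e-04). The transcription factor Atf3 followed at 3.36 log2 over saline in KO (SE 0.69, adjusted p = 0.00104), and Chac1, a glutathione-degrading target of ATF4, at 2.35 (SE 0.67, adjusted p = 0.00916). Ddit3, which encodes the pro-apoptotic factor CHOP, and Atf4 are named for their place at the end of the PERK branch after their values were seen. Over saline in KO, Ddit3 was at -0.07 log2 (adjusted p = 0.813) and Atf4 at 0.27 (adjusted p = 0.468). In WT, Ddit3 fell by 0.68 log2 (adjusted p = 0.0444) and Nupr1 by 1.26 (adjusted p = 0.0019), and Asns rose by 1.02 (adjusted p = 0.0459), making 2 higher and 2 lower of 16.

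Relatives of ATF6 and of its processing had 7 of 11 higher and 1 lower in KO, led by the ER-anchored factors Creb3l4 at 1.52 log2, Creb3l3 at 1.45 and Creb3l1 at 1.15. Other ERAD ligases, extraction factors and cofactors divided evenly, 4 of 20 higher and 4 lower, with the membrane ligase Rnf5 at -1.23, Ubxn8 at 0.68 and Erlin2 at -0.60. Of 5 ER-phagy receptors, 0 were higher and 2 lower in KO. One of that list, Retreg1, fell in WT by 2.11 log2 (adjusted p = 1.95e-05), with 9.92, 9.41, 15.9 and 12.3 CPM in isoproterenol-treated WT libraries against 48.7, 53.7, 49.6 and 49.4 CPM in saline-treated WT libraries, and its KO response exceeded the WT response by 2.55 log2 (adjusted p = 1.09e-04).

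Chaperones outside the ER took different courses. In KO, 4 of 12 cytosolic heat shock genes were higher and 0 lower, led by the inducible Hsp70 genes Hspa1a at 2.54 log2 and Hspa1b at 2.22 and by Hsp90aa1 at 1.06, and reads of the near-identical Hspa1a and Hspa1b cannot be cleanly divided. In WT, 4 of the 12 cytosolic genes were also higher and 0 lower, where 7.60% of all genes were higher. The difference of the responses was called higher for 1 of these 12 and lower for 0. Of 13 mitochondrial chaperones and proteases, 0 were higher and 6 lower in KO, with a median of -0.82 log2, led by Trap1 at -1.72, Dnaja3 at -1.34 and Afg3l2 at -1.32. In WT those 13 had 0 higher and 0 lower and a median of 0.25 log2 by limma, with 2 at an unadjusted p below 0.05. The difference of the responses was called lower for 7 of the 13 mitochondrial genes and higher for 0, where 13.8% of all genes were lower and 10.9% higher. Saline-treated KO over saline-treated WT tissue gave 0 calls in every one of these lists, with 0 to 3 genes a list at an unadjusted p below 0.05.

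**Figure D5:**
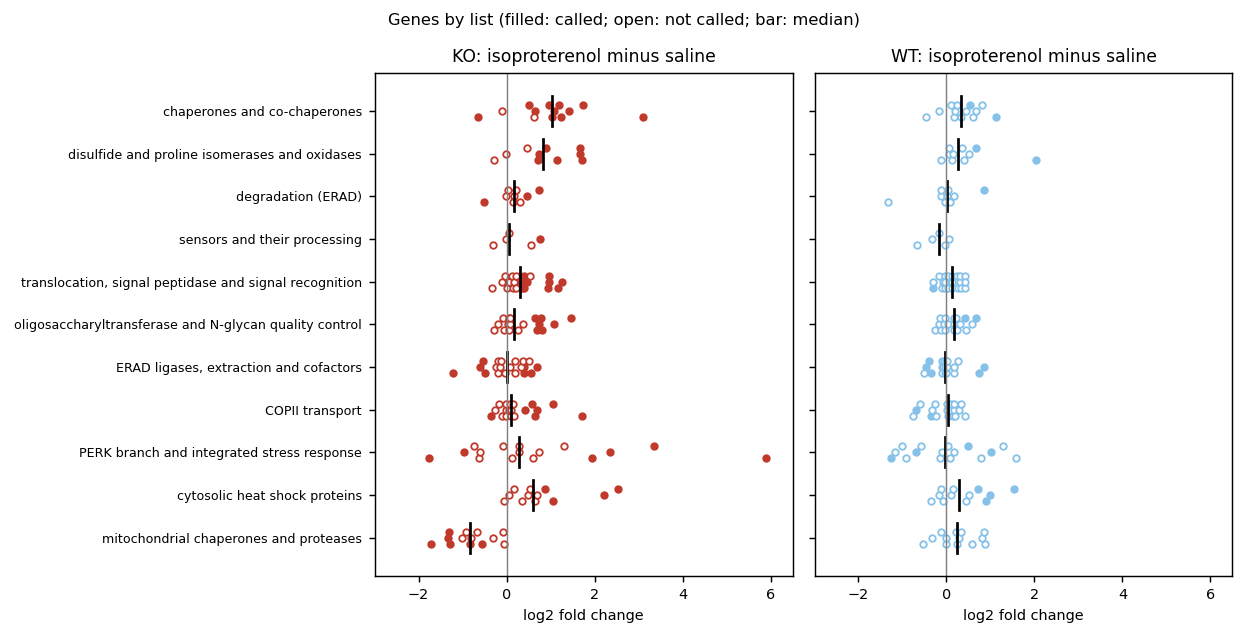
Log2 fold change over saline in KO (left) and WT (right) tissue, with 1 point per gene, filled where the adjusted p was below 0.05, and a black bar at the median of each list. Rows are 4 of the roles among the 39 genes and 7 lists of other components. In KO the chaperone and isomerase rows centre at 1.02 and 0.82 log2 and the mitochondrial row at -0.82, and in WT the chaperone row centres at 0.34 log2 and the mitochondrial row at 0.25.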

How the data were processed

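The deposited values were log2 CPM (reads per 1000000 of a scaled library size) from TruSeq stranded mRNA libraries read as 75 base single reads, per the labels, made by the authors with STAR and limma on the mm39 build, per the submitters' processing notes. How reads were counted, whether by strand, and on which annotation is not given in the sources used here. Every deposited log2 value equalled a whole number of reads plus 0.5 over a scaled library size (100% of values, within 1e-06). CPM printed here keeps that 0.5, which adds to the values of rare genes. Of 15350 gene identifiers, 15320 matched a symbol and 30 did not. For 3 saline-treated KO files header and title differ in replicate number, and titles were used. All listed genes were tested. Since the deposited unit is log2, the tests used limma 3.58.1 in R 4.3.3: means of the 4 groups over 16 libraries, trended and robust moderation, Benjamini-Hochberg adjustment over all genes, threshold 0.05. A fold change is the ratio of geometric means of reads plus 0.5 and understates the change of rare genes. Depths of 9004515 to 20986735 reads limit rare genes, and 3 reads were taken as the floor.

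Same-numbered WT libraries deviated together (correlations of 0.210, 0.424, 0.234 and 0.536 between isoproterenol and saline deviations), and same-numbered KO libraries did not in every pair (0.0405, 0.149, 0.239 and 0.0329). Isoproterenol-treated WT replicate 3 matched saline-treated WT replicate 4 best, and KO replicates 2 and 3 matched their own number best. Values in every library were given for the 2 called genes with the largest change per role and comparison and for all sensors, and for other lists at most 3 called genes were named. Alternatives were library totals, median-of-ratios scaling, a prior of 4 reads, a 1 CPM filter, the compared groups alone, library weights, voom weights, plain moderation, a replicate block and leaving out each library. The genes and lists were chosen with earlier results of these data known.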

Additional observations from a re-analysis of the deposited data

Results flagged for a closer look

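The isoproterenol response differed between genotypes, by the test of the difference itself (limma, adjusted over all genes), for 9 of the 39 genes. KO minus WT was 2.30 log2 for Sdf2l1, 1.52 for Pdia4, 1.21 for P4hb, 1.21 for Xbp1, 1.09 for Ern1, 0.857 for Sec61a1, 0.777 for Dnajc10, -0.82 for Derl1 and -0.977 for Fkbp2.

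In 9 of 156 sets of 4 libraries, 1 library lay far from the other 3 by Dixon's ratio of the gap to the whole range, where chance alone marks about 5% of sets. The ratio was 0.895 for Fkbp2 in isoproterenol-treated KO replicate 2, which had 29.3 CPM against 48.3 to 51.2 CPM in the other 3. In isoproterenol-treated WT libraries it was 0.884 for Dnajb9 (replicate 1 at 38.2 CPM, the others at 74.4 to 81.2), 0.833 for Pdia5 (replicate 1 at 20.3 CPM, the others at 13.8 to 14.7) and 0.837 for Herpud1 (replicate 2 at 95.6 CPM, the others at 125 to 132). In saline-treated KO libraries it was 0.832 for Ppib (replicate 4 at 47.6 CPM, the others at 41.3 to 42.3) and 0.856 for Derl2 (replicate 4 at 57.0 CPM, the others at 45.3 to 46.8). In saline-treated WT libraries it was 0.872 for Ern1 (replicate 2 at 18.7 CPM, the others at 28.8 to 30.7), 0.895 for Eif2ak3 (replicate 1 at 24.9 CPM, the others at 29.2 to 29.7) and 0.833 for Sec61b (replicate 2 at 36.3 CPM, the others at 31.2 to 32.0).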

How the results depend on the processing

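No gene of the 39 changed the sign of a called value under any setting run, and the causes of the shifts below were not tested. Scaling by library totals moved the median of all genes by 0.18 log2 in isoproterenol over saline in KO, -0.13 in WT, 0.27 in KO over WT under isoproterenol, -0.04 in KO over WT under saline and 0.34 in the difference of responses. With it 0 genes were lower in KO, 2 lower in KO over WT under isoproterenol, and 14 higher and 1 lower in the difference of responses (18.9% and 9.62% of all genes). With the compared groups alone 1 was lower in KO, 12 were higher and 2 lower in WT, and 11 were higher and 2 lower in KO over WT under isoproterenol. Higher and lower shares of all genes were then 16.3% and 17.5% in KO, and 16.3% and 15.8% in WT. In KO over WT under isoproterenol they were 14.2% and 16%. With library weights 12 were higher and 2 lower in WT, 2 higher in KO over WT under saline, and 17 higher in the difference of responses, while all genes rose to 17.4% higher and 18.2% lower, 2.07% higher and 20.4% higher in the same comparisons. Voom weights gave 1 lower in WT, and plain moderation gave 1 lower in the difference of responses. With the replicate block and all libraries 22 were higher and 2 lower in KO, 4 and 0 in WT, 22 and 4 in KO over WT under isoproterenol, 0 and 0 under saline, and 7 and 2 in the difference of responses. The block on the WT libraries alone, chosen after seeing the data, gave 12 higher and 3 lower, beside 17.3% and 17.2% of all genes. Leaving out 1 library gave 20 to 23 higher and 1 to 3 lower in KO, 4 to 8 and 0 to 2 in WT, 17 to 26 and 3 to 5 in KO over WT under isoproterenol, 0 under saline, and 4 to 18 and 1 to 4 in the difference of responses. The difference of responses could not be fitted on 2 groups alone. Depth limits Fkbp11 and Derl3, read at 22 to 323 reads per group.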
